A study of Mus musculus with 55 samples.

Results

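The *Peg3* imprinted domain on proximal mouse chromosome 7 was examined through 4 named genes, *Peg3*, *Usp29*, *Zim1* and *Zfp264*, which were listed by name, with no threshold on their values. All 4 were among the 51734 genes of the oocyte count tables, and 3 of them (*Peg3*, *Usp29* and *Zim1*) were among the 24421 genes of the allelic embryo tables, while allelic counts of *Zfp264* were not analysed here. The study asked what the ADD domains of DNMT3A and DNMT3L, the histone-reading parts of the oocyte's de novo DNA methylation complex, do for methylation and transcription in germ cells. Each oocyte library was made from a single oocyte. There were 18 wild-type full-grown oocytes (FGOs), 8 FGOs with the genotype Dnmt3a+/+ and Dnmt3LD124A/D124A (DNMT3L-ADD), 8 with Dnmt3aADA/ADA and Dnmt3L+/+ (DNMT3A-ADD), and 8 with Dnmt3aADA/ADA together with Dnmt3LD124A/D124A (double mutant), all from females 10 to 12 weeks old. The series also holds 10 wild-type MII oocytes, which are matured and ovulated oocytes arrested before fertilization, whose donor age the labels do not state. For fertilization, the paper collected MII oocytes after injecting females with inhibin antiserum and human chorionic gonadotropin. Its sequencing methods do not state the donor treatment separately. In addition, 3 embryos of embryonic day 9 (the day in their titles) carried a maternal contribution from Dnmt3aADA/ADA, Dnmt3LD124A/D124A oocytes and a wild-type paternal allele from JF1 sperm. These embryos were made by in vitro fertilization and carried by ICR foster females, and the mutations came through the germ line in every cell of the mothers, with no Cre driver. The labels call the replicates separate samples but do not say from how many females they came, so the p-values measure the spread between these oocytes or embryos.

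Genomic imprinting marks a gene by DNA methylation in one parent's germ cells, so that the embryo later reads mainly the other parent's copy. In this domain the mark is placed in the growing oocyte, over the region where *Peg3* and *Usp29* start in opposite directions. In wild-type mouse tissues *Peg3*, *Usp29* and *Zfp264* are known to be read from the paternal copy and *Zim1* from the maternal copy. PEG3 is a zinc finger protein tied to maternal behaviour, growth and cell death signalling, USP29 belongs to the deubiquitinating enzymes, and *Zim1* encodes another zinc finger protein.

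In the files' coordinates (mm10, chromosome 7), *Zim1* lies at 6671269 to 6696450 on the minus strand, *Peg3* at 6703892 to 6730431 on the minus strand, *Usp29* at 6730578 to 6967219 on the plus strand and *Zfp264* at 6977246 to 6991087 on the plus strand. The 4 genes span 319.819 kb. The annotation calls *Zfp264* a transcribed unprocessed pseudogene and the other members protein coding. Only 146 bases part the annotated end of *Peg3* from the start of *Usp29*, and 7441 bases part *Zim1* from *Peg3*. The antisense gene *Zim3* overlaps *Usp29* by 11535 bases and *Zfp264* by 175 bases, and the oocyte kit does not mark strand, so oocyte reads of these stretches cannot be assigned to one of the overlapping genes.

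Promoter windows of 300 bases, from 250 before to 50 after the RefSeq start (GRCm38.p6, the assembly also called mm10), were found for 3 of the 4 members. The windows of *Peg3* and *Usp29* share 263 bases, because their starts lie 164 bases apart. The 96 bases outside all annotated transcripts of both genes are shown because this stretch holds the start region that the pair shares. They lie at chr7:6730463-6730558 and are written on the strand of *Usp29*, and the capitals mark 2 CCAAT boxes (letters of the NF-Y box).

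Peg3-Usp29 gap: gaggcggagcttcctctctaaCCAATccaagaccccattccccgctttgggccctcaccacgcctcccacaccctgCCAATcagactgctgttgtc

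The letters TGACGTCA, a CREB site, followed just inside *Usp29*, at chr7:6730581-6730606 on the plus strand, in capitals below. In the window of *Zim1*, the letters TGCCGC of the ZFP57 binding motif were found once, on the opposite strand to the gene, at chr7:6696437-6696462 (minus strand shown). ZFP57 is the protein that protects methylated imprints in the early embryo.

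CREB site: gcacggagtTGACGTCAacggagtca

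ZFP57 binding motif: aagtcatcccGCGGCAttccactccg

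Over 32817 promoter windows of the same length, on both strands, CCAAT was present in 37.4%, TGACGTCA in 1.79%, TGCCGC in 11.6% and GCCAT, the core of the YY1 motif, in 40.5%. The windows of *Peg3* and *Usp29* held 13 and 17 CpG sites and that of *Zim1* held 20, against a median of 7 over all windows. At least as many sites were present in 37.9%, 31.4% and 26.5% of all windows, in that order. GCCAT was not found in these 3 windows, nor TGCCGC in those of *Peg3* and *Usp29*, which says only that the letters are absent there.

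Total counts per oocyte library lay between 7832458 and 23739871 (median 14410784). The 7 oocyte markers (*Zp1*, *Zp2*, *Zp3*, *Gdf9*, *Bmp15*, *Ddx4* and *Figla*) had counts in every group. Their summed level is given in CPM (counts out of every 1000000 in a library, after scaling between libraries). Its median was 6691 CPM in wild-type FGOs, 5561 in DNMT3L-ADD, 5052 in DNMT3A-ADD, 7782 in double mutant FGOs and 5021 in MII oocytes. Over the wild-type FGOs it gave r of 0.50 with *Peg3* (rho 0.37), 0.55 with *Usp29* (rho 0.61) and 0.73 with *Zim1* (rho 0.63), as a description (n = 18), and its part in the differences given below was not tested. Summed markers of granulosa cells, which surround the oocyte, reached 283 CPM in wild-type FGOs and 141 CPM in MII oocytes. These granulosa genes differed unequally between MII oocytes and wild-type FGOs. The log2 differences were -7.95 for *Amh*, -6.02 for *Inha*, -4.10 for *Foxl2*, -3.38 for *Cyp11a1*, -3.33 for *Hsd3b1* and -2.47 for *Inhba*. They were -0.73 for *Fshr*, -0.55 for *Kitl*, -0.05 for *Nr5a2* and 0.04 for *Cyp19a1*. Summed theca and stroma markers had a lowest value of 5.44 CPM and a median of 10.4 CPM in wild-type FGOs and lay between 2.01 and 4.54 CPM in double mutant FGOs, where *Acta2* and *Lum* were at 0. Libraries also differed in the share of reads that mapped. All 8 double mutant FGOs, 8 wild-type FGOs, 3 DNMT3A-ADD FGOs and 3 MII oocytes had under 80% of reads mapped, and the other libraries, all 8 DNMT3L-ADD FGOs among them, had at least 80%. Between these classes of wild-type FGOs, r of the oocyte markers with *Peg3* changed sign. It was 0.72 under 80% (n = 8) and -0.53 at 80% or more (n = 10). For *Usp29* these values were 0.57 and 0.39, and for *Zim1* 0.75 and 0.51.

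*Peg3* was the most abundant member per length in wild-type FGOs. Levels in oocytes, above and below, are TMM-normalised CPM, that is CPM after scaling between libraries. In the 18 wild-type FGOs *Peg3* lay between 25.6 and 85.9 CPM, with a median of 48.7 CPM. Divided by the length of its exons, its median was 3.66 CPM per kb, against 1.505 for *Usp29*, 1.38 for *Zfp264* and 0.813 for *Zim1*. The per-kb ranges over libraries (1.92 to 6.45 for *Peg3*, 0.953 to 2.73 for *Usp29*, 0.667 to 2.16 for *Zfp264* and 0.499 to 1.92 for *Zim1*) overlapped between every pair of neighbours in this order. *Zfp264* is one of a family of similar zinc finger genes, and the counting of reads with several positions is not stated, so its level is uncertain.

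*Peg3* levels overlapped across the FGO genotypes. Its lowest, median and highest CPM were 37.5, 50.7 and 79.4 in DNMT3L-ADD FGOs. In DNMT3A-ADD FGOs they were 34.3, 46.3 and 82.4. In double mutant FGOs they were 44.8, 59.3 and 79.9. The 3 mutant ranges lay within the wild-type range. The fitted log2 difference from wild type was -0.04 in DNMT3L-ADD (95% confidence interval -0.41 to 0.32), -0.12 in DNMT3A-ADD (-0.49 to 0.24) and 0.20 in the double mutant (-0.16 to 0.56). The adjusted p were 0.909, 0.680 and 0.479 by edgeR.

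*Usp29* also overlapped between genotypes. In wild-type FGOs it lay between 17.2 and 49.3 CPM with a median of 27.2, and the DNMT3L-ADD FGOs lay between 21.1 and 34.5 with a median of 31.1. The DNMT3A-ADD FGOs lay between 21.8 and 35.4 CPM with a median of 27.8, and the double mutant FGOs had the highest median, 36.1 CPM, and a range of 27.1 to 41.9. No mutant library left the wild-type range. The log2 differences were -0.05 (-0.32 to 0.23), -0.08 (-0.36 to 0.19) and 0.25 (-0.02 to 0.52), with adjusted p of 0.862, 0.715 and 0.205 by edgeR. Against the 8 wild-type FGOs with under 80% mapped reads, the class of all double mutant FGOs, the double mutant difference of *Usp29* was 0.02 (adjusted p = 0.977 by edgeR), and against the 10 with at least 80% it was 0.47 (adjusted p = 0.00200 by edgeR), still under 2-fold.

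*Zim1* was low in all groups and had its highest values in wild-type FGOs. Wild-type FGOs spanned 4.03 to 15.5 CPM (median 6.57), DNMT3L-ADD FGOs 3.64 to 7.34 (median 4.99), DNMT3A-ADD FGOs 3.39 to 9.67 (median 5.62) and double mutant FGOs 2.76 to 9.45 (median 6.37). The upper end of the wild-type range came from replicates 4, 5 and 6, with 15.5, 14.5 and 13.05 CPM, and all of these had under 80% mapped reads. The log2 difference of *Zim1* was -0.55 in DNMT3L-ADD FGOs (-1.03 to -0.07, p = 0.0266, adjusted p = 0.161 by edgeR), -0.42 in DNMT3A-ADD FGOs (adjusted p = 0.221) and -0.34 in the double mutant (adjusted p = 0.335). It was closer to 0 within the class with at least 80% mapped reads, at -0.22 for DNMT3L-ADD (8 against 10 oocytes, adjusted p = 0.612 by edgeR) and -0.02 for DNMT3A-ADD (5 against 10, adjusted p = 0.963 by edgeR). Within the class with under 80%, it was -0.66 for the double mutant (8 against 8, adjusted p = 0.296 by edgeR) and -0.88 for DNMT3A-ADD (3 against 8, adjusted p = 0.235 by edgeR). With all libraries of a mutant set against only the wild-type FGOs with under 80%, *Zim1* was at -0.87 in DNMT3L-ADD (adjusted p = 0.0235 by edgeR) and -0.75 in DNMT3A-ADD (adjusted p = 0.0388 by edgeR), which passes the adjusted p but not the 2-fold threshold. The part of the mapped share in these values was not tested.

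The lowest CPM of the members was that of *Zfp264*. Its median was 3.89 CPM in wild-type FGOs (1.89 to 6.13), 3.78 CPM in DNMT3L-ADD FGOs (2.03 to 4.56), 3.79 CPM in DNMT3A-ADD FGOs (1.99 to 5.30) and 3.53 CPM in double mutant FGOs (2.44 to 4.02). The mutant ranges again fell inside the wild-type one. Its log2 differences were -0.10, -0.12 and -0.22, with adjusted p of 0.757, 0.643 and 0.369 by edgeR.

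**Figure D1:**
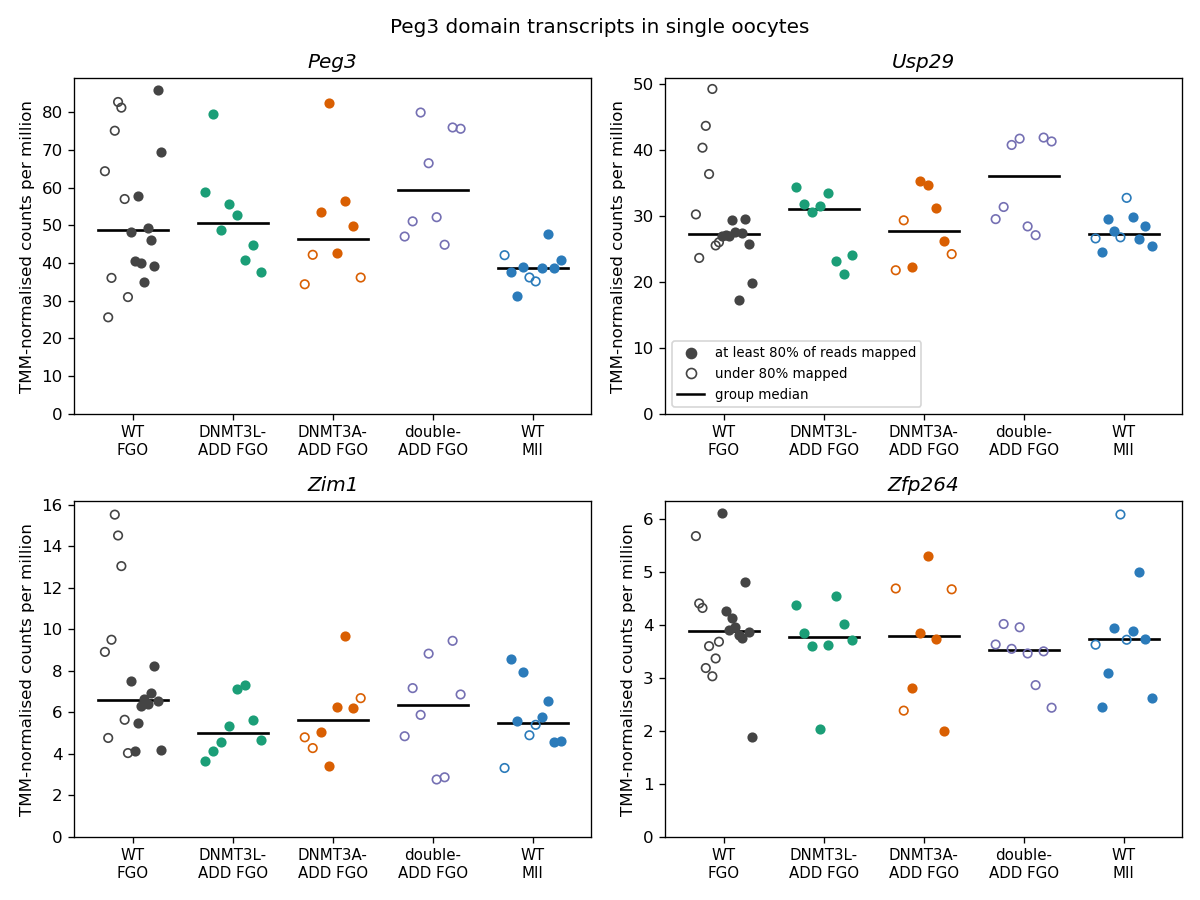
Level of each member (vertical axis, TMM-normalised CPM) in every single oocyte, by group on the horizontal axis, with open circles for libraries with under 80% mapped reads and black lines for group medians. The groups overlap for all 4 genes, Peg3 spans 25.6 to 85.9 CPM in wild-type FGOs and 31.2 to 47.6 CPM in MII oocytes, and the highest Zim1 values are wild-type FGOs with under 80% mapped reads.

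Of the 4 members, 0 were called by edgeR (adjusted p under 0.05 and a fold change over 2) in DNMT3L-ADD FGOs, where 0.655% of the 15726 genes tested were called. The count was also 0 in DNMT3A-ADD FGOs (2.05% of genes called) and in double mutant FGOs (1.65%). At an unadjusted p under 0.05 there were 1 (*Zim1*), 0 and 0 members, beside 3537, 4833 and 4563 of the 15726 genes tested. The exact test of edgeR and DESeq2 called 0 members in each. The median log2 difference of the 4 members was -0.07, -0.12 and -0.01 in the order above, beside -0.03, -0.03 and -0.01 over all genes tested. A count of 0 among 4 is near these background shares.

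The mutations of the 2 proteins could add up or not. The non-additive effect, the double mutant difference less the sum of both single mutant differences on the log2 scale, was 0.36 for *Peg3* (-0.20 to 0.93), 0.38 for *Usp29* (-0.04 to 0.81), 0.62 for *Zim1* (-0.11 to 1.35) and 0.00 for *Zfp264* (-0.48 to 0.48). The adjusted p were 0.322, 0.152, 0.179 and 0.995 by edgeR, so 0 of 4 passed, where 35.6% of all genes passed. At an unadjusted p under 0.05 the count was 0, beside 7090 of the 15726 genes tested, and it was 0 in DESeq2. With only wild-type FGOs with under 80% mapped reads as controls, *Usp29* reached 0.62 (adjusted p = 0.0173 by edgeR) and *Zim1* 0.96 (adjusted p = 0.0458 by edgeR), and with only those with at least 80% they were 0.17 (adjusted p = 0.505 by edgeR) and 0.30 (adjusted p = 0.483 by edgeR). All DNMT3L-ADD FGOs had at least 80% and all double mutant FGOs under 80% mapped reads, so genotype and mapped share cannot be told apart in this contrast.

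*Peg3* was lower in MII oocytes than in FGOs. The 10 MII oocytes lay between 31.2 and 47.6 CPM with a median of 38.6 CPM, inside the wild-type FGO range. They were also more alike, with a coefficient of variation of 11.3% against 35.5% in wild-type FGOs. This was not particular to *Peg3*, with 8.68% against 27.2% for *Usp29* and 27.8% against 45.2% for *Zim1*. For *Zfp264* it was 28.3% against 23.7%. *Peg3* differed by -0.49 on the log2 scale (standard error 0.16, interval -0.81 to -0.17, adjusted p = 0.0113 by edgeR over 15784 genes), which is under the 2-fold threshold. The direction was the same within both classes of mapped reads, at -0.62 with under 80% (3 against 8, adjusted p = 0.240 by edgeR) and -0.40 with at least 80% (7 against 10, adjusted p = 0.0518 by edgeR), and neither passed the test. The summed granulosa and theca markers were also lower in MII oocytes, the granulosa genes unequally, as given above. Their part in the *Peg3* difference, and that of any donor injection, was not tested.

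The other members did not pass the test between stages. *Usp29* lay between 24.6 and 32.7 CPM in MII oocytes (median 27.2, the same as in FGOs), and its log2 difference was -0.11 (adjusted p = 0.484 by edgeR). *Zim1* lay between 3.31 and 8.55 CPM (median 5.49), with a difference of -0.45 (adjusted p = 0.0823 by edgeR), which was -1.10 among libraries with under 80% mapped reads (adjusted p = 0.110 by edgeR) and -0.01 among those with at least 80% (adjusted p = 0.961 by edgeR). *Zfp264* lay between 2.46 and 6.09 CPM (median 3.73), with a difference of -0.08 (adjusted p = 0.698 by edgeR). Against only the wild-type FGOs with under 80% mapped reads, all 10 MII oocytes differed by -0.33 in *Usp29* (adjusted p = 0.0290 by edgeR) and -0.76 in *Zim1* (adjusted p = 0.00924 by edgeR). With all wild-type FGOs as controls, 0 of 4 members were called with a fold change over 2, where 9.2% of genes were called, and 1 of 4 passed the adjusted p alone, which 39.1% of genes did.

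**Figure D2:**
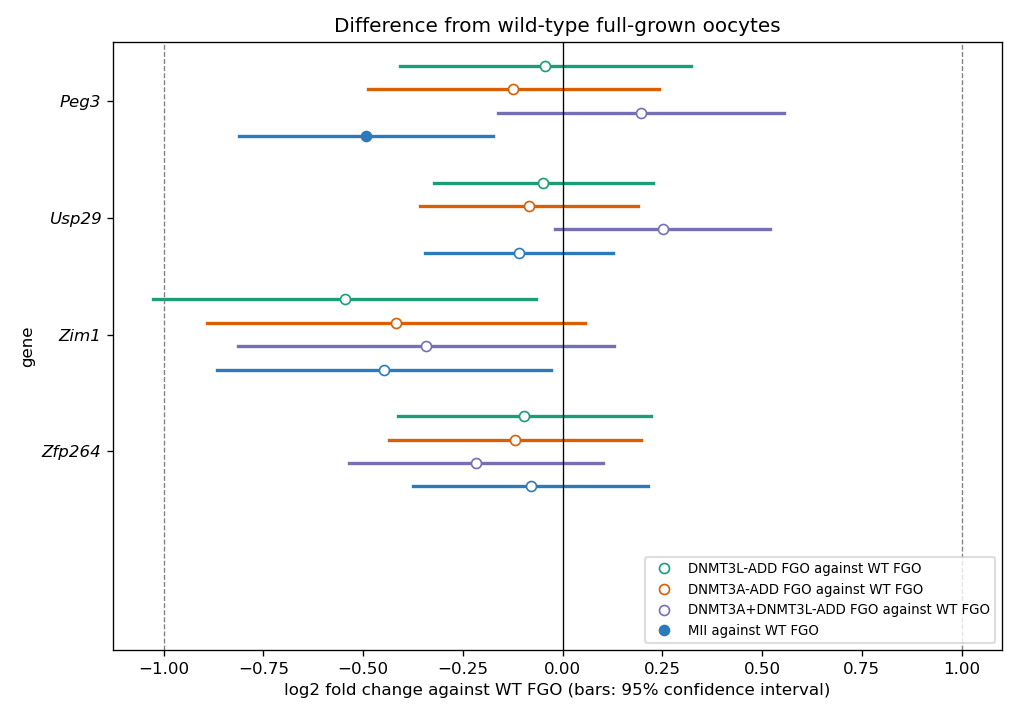
Fitted log2 fold change against wild-type FGOs (horizontal axis, points) with 95% confidence intervals (bars) for the 4 members (vertical axis) in the 3 mutant FGO groups and in MII oocytes, where filled points have an adjusted p under 0.05 and dashed lines mark a 2-fold change. Of the 16 values only that of Peg3 in MII oocytes, -0.49, is filled.

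Within a group, some members were high in the same oocytes. Over the 18 wild-type FGOs, log2 CPM of *Usp29* and *Zim1* gave Pearson's r of 0.80 and Spearman's rho of 0.84, and r was 0.66 without the 2 oocytes farthest from the median of *Usp29*. It was 0.89 among the 8 with under 80% mapped reads and 0.35 among the 10 with at least 80%. In DNMT3L-ADD and DNMT3A-ADD FGOs r was -0.35 and -0.04 (n = 8 each). *Peg3* and *Usp29*, which share their start region, gave r of 0.33 over the wild-type FGOs (rho 0.16), with 0.67 among those with under 80% and -0.38 among those with at least 80% mapped reads. For this pair r was 0.72 in DNMT3L-ADD FGOs and 0.55 in DNMT3A-ADD FGOs (n = 8 each), and -0.52 in MII oocytes (n = 10). These are descriptions over libraries, and the points of a pair share the same library, depth and scaling.

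In double mutant FGOs the oocytes fell into separate clusters, so a correlation over all of them also takes in the gap between clusters. Replicates 3, 4, 7 and 8 held *Peg3* at 79.9, 66.5, 75.9 and 75.6 CPM and *Usp29* at 40.8, 41.7, 41.9 and 41.3 CPM. In replicates 1, 2, 5 and 6 *Peg3* was at 47.0, 51.0, 52.1 and 44.8 CPM and *Usp29* at 29.5, 31.4, 28.4 and 27.1 CPM. The same oocytes were high in both genes. *Zim1* values overlapped between the sets, with 5.87, 8.83, 9.45 and 6.86 CPM in the first and 4.84, 7.17, 2.76 and 2.87 CPM in the second. Over all double mutant FGOs *Usp29* and *Zim1* gave r of 0.83 (rho 0.90, n = 8), and r was 0.66 without the 2 oocytes farthest from the median of *Usp29*.

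**Figure D3:**
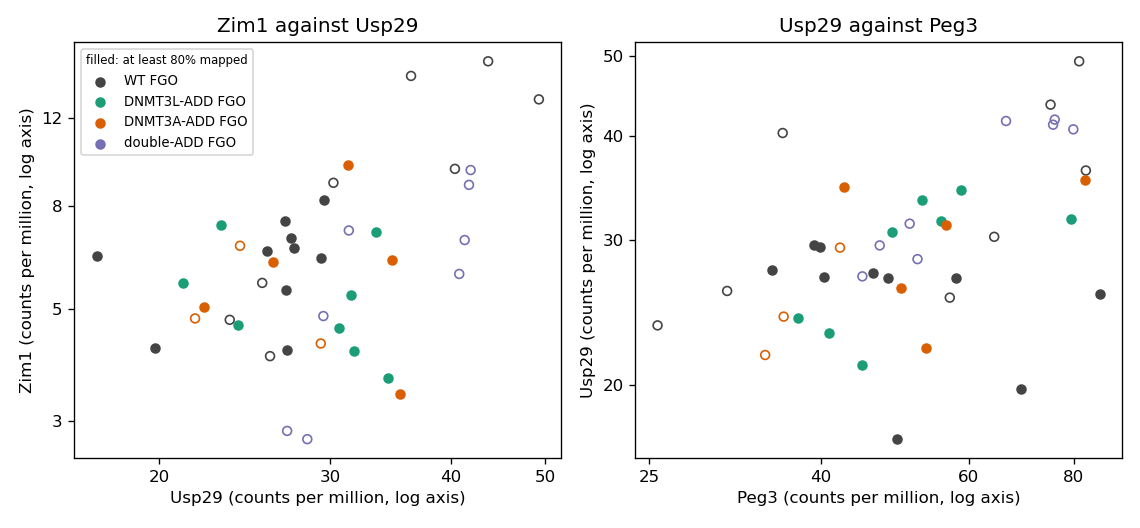
CPM of Zim1 against Usp29 (left) and of Usp29 against Peg3 (right) in the single FGOs, log axes, with a colour for each genotype and open circles for under 80% mapped reads. Wild-type FGOs rise along the left plot (r = 0.80, n = 18), and the double mutant FGOs form separate clusters on the right, with Usp29 between 27.1 and 31.4 CPM or between 40.8 and 41.9 CPM.

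The genes most like each member were taken by Pearson's r of log2 CPM over the 52 oocyte libraries, among 15783 genes. For *Peg3* they were *Nudcd3* (r = 0.87), *Syne1* (0.87) and *Fmr1* (0.86), and for *Usp29* *Zbtb10* (0.79), *Scamp5* (0.76) and *Slc30a1* (0.76). For *Zim1* they were *Acsf2* (0.63), *1700019D03Rik* (0.62) and *Dcaf17* (0.61), and for *Zfp264* *Olfr214* (0.52), *Gabarapl2* (0.49) and *Ly96* (0.49). *Usp29* stood at rank 2148 for *Peg3* (r = 0.51), and *Zfp264* at rank 11150 (r = -0.21). These values mix stages and genotypes.

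Of the genes beside the members, *Zim2*, *Zim3*, *Aurkc* and *Zik1* were tested, 4 of 5 listed (*Apeg3* was not matched). Of these, 0 passed an adjusted p under 0.05 by edgeR in DNMT3L-ADD, DNMT3A-ADD or double mutant FGOs, where 6.13%, 15.7% and 12.2% of all genes did. At an unadjusted p under 0.05 the counts were 0, 1 and 1, beside 3537, 4833 and 4563 of the 15726 genes tested. The exact test and DESeq2 were read for the members only. *Zim2*, which lies beyond *Zim1* and stands under its older name Gm44015 in the oocyte tables, was 5.67 CPM in the median wild-type FGO and 3.26 CPM in the median DNMT3A-ADD FGO, a log2 difference of -0.69 (p = 0.0170, adjusted p = 0.0808 by edgeR). Over the wild-type FGOs *Zim2* and *Peg3* gave r = 0.78 (rho 0.80, n = 18). In DNMT3L-ADD, DNMT3A-ADD and double mutant FGOs r was 0.32, -0.20 and 0.42 (n = 8 each), and in MII oocytes 0.29 (n = 10). Without the 2 oocytes farthest from the median of *Peg3*, r was 0.78, -0.73, -0.36, 0.37 and 0.18 in this order. In MII oocytes *Zik1*, a zinc finger gene 3.78 Mb away, was lower by -0.53 on the log2 scale (adjusted p = 0.0325 by edgeR). It was 1 of the 4 tested there, where 39.1% of all genes passed.

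Factors that set or keep the imprint, a list of 10 (*Dnmt3a*, *Dnmt3l*, *Dnmt1*, *Uhrf1*, *Zfp57*, *Zfp445*, *Trim28*, *Setdb1*, *Dppa3* and *Yy1*), were measured in the same oocytes. At an adjusted p under 0.05 by edgeR, 1 of 10 was lower in each mutant and 0 were higher, where 6.13% of genes passed in DNMT3L-ADD, 15.7% in DNMT3A-ADD and 12.2% in double mutant FGOs. *Zfp445*, which guards imprints beside ZFP57, had a log2 difference of -0.33 in DNMT3L-ADD FGOs (adjusted p = 0.0285), *Yy1*, a factor that binds the *Peg3* region, -0.52 in DNMT3A-ADD FGOs (adjusted p = 0.0454), and *Setdb1*, a histone methyltransferase, -0.20 in double mutant FGOs (adjusted p = 0.0217), by edgeR. *Yy1* was at -0.51 in DNMT3L-ADD FGOs (adjusted p = 0.0833) and 0.31 in double mutant FGOs (adjusted p = 0.236), by edgeR. The part of the mapped share in these values was not tested. In MII oocytes, where 39.1% of all genes passed, 4 of 10 were higher and 3 lower, from -0.82 for *Dnmt1*, the maintenance methyltransferase, to 0.33 for *Zfp57*. Of 4 genes whose products act with PEG3 in cell death signalling (*Siah1a*, *Traf2*, *Bax* and *Trp53*), *Siah1a* was higher in DNMT3A-ADD FGOs (0.29, adjusted p = 0.00428) and in the double mutant (0.24, adjusted p = 0.0249), and *Traf2* was lower in MII oocytes (-1.76, adjusted p = 0.000186), by edgeR, 1 of the 4 tested there. *Traf2* was low, with medians of 2.11 CPM in wild-type FGOs and 0.677 CPM in MII oocytes. It had 4 to 20 counts per MII library.

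In the embryos from double mutant oocytes, *Peg3* was read from both parental alleles, at a maternal share of 48.1% to 50.9%. Reads were assigned to the maternal or paternal (JF1) allele by sequence differences between the strains. Wild-type embryos were not analysed here, so these shares have no wild-type embryos beside them. Embryo 1 had 8028 maternal and 7738 paternal *Peg3* reads, embryo 2 had 5759 and 6124, and embryo 3 had 4604 and 4961. The maternal share was thus 50.9% (Wilson 95% interval 50.1 to 51.7), 48.5% (47.6 to 49.4) and 48.1% (47.1 to 49.1), or 49.2% ± 1.52 (SD, n = 3). The intervals cover counting error only. The allele difference, maternal over paternal, was -0.05 on the log2 scale (interval -0.28 to 0.19, adjusted p = 0.788 by edgeR with the embryo as a block).

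In CPM of all allelic reads, the total of *Peg3* was 2092 in embryo 1, 1390 in embryo 2 and 1367 in embryo 3. Embryo 1 was the highest, and its maternal and paternal parts (1065 and 1027 CPM) were both above those of embryo 2 (674 and 716 CPM) and embryo 3 (658 and 709 CPM). In bulk RNA from whole embryos, fewer cells of a type and less RNA per cell cannot be told apart. The makeup of the embryos also differed. Summed embryo-proper markers (7 of 8 with counts, *Hand1* at 0) were 586, 139 and 336 CPM in embryos 1 to 3, and summed yolk sac endoderm markers (3, 4 and 4 of 4 with counts, *Ttr* at 0 in embryo 1) 46.5, 682 and 337 CPM. Placental trophoblast markers were at 0 in embryos 1 and 3 and at 1.29 CPM in embryo 2 (1 of 5 with counts). All these sums hold allele-assigned reads only, which need a strain difference in the transcript. A value of 0 thus does not show that a tissue was absent. Genes listed for the maternal decidua summed to 103, 55.7 and 35.3 CPM (3, 4 and 3 of 4 with counts). Of these reads 44.1%, 66.0% and 56.7% were maternal. Paternal reads were thus present, and the sums do not measure maternal tissue alone. The part of these tissues in the shares was not tested.

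*Usp29* had far fewer allelic reads and differed more between embryos. It had 80 maternal and 31 paternal reads in embryo 1, 29 and 32 in embryo 2, and 19 and 22 in embryo 3. The maternal share was 72.1% (63.1 to 79.6) in embryo 1, 47.5% (35.5 to 59.8) in embryo 2 and 46.3% (32.1 to 61.3) in embryo 3, and the first interval did not overlap the other two. In CPM of all allelic reads the paternal part was 4.11, 3.74 and 3.14, while the maternal part was 10.6, 3.39 and 2.71, so the embryos parted on the maternal allele. The log2 allele difference was 0.36 (-0.89 to 1.61, adjusted p = 0.705 by edgeR), and without embryo 1 it was -0.17.

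*Zim1* had 1 maternal and 5 paternal reads in embryo 1, 7 and 1 in embryo 2, and 2 and 2 in embryo 3. With 6, 8 and 4 reads no share was computed and no test was made, and over the embryos 10 maternal and 8 paternal reads were counted. Allele-informative reads need a strain difference in the transcript, so few reads do not show a low level. Of the neighbours, *Zim2* and *Aurkc* had 0 allelic reads, *Zim3* had 1 and *Apeg3*, the antisense transcript of *Peg3*, had 2.

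**Figure D4:**
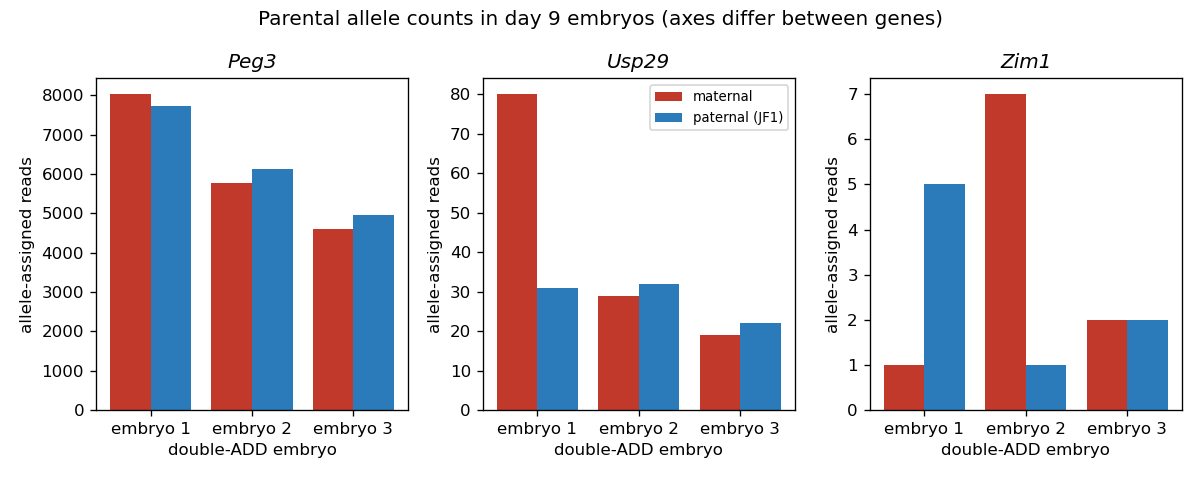
Allele-assigned reads (vertical axes from 0, scale differing between genes) from the maternal (red) and paternal (blue) allele in each of the 3 embryos for Peg3, Usp29 and Zim1. The bars of a pair are close for Peg3 in every embryo (8028 and 7738 in embryo 1), while Usp29 has 80 maternal and 31 paternal reads in embryo 1 alone, and Zim1 has at most 7 reads per allele.

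By edgeR 0 of the 2 members tested differed between alleles at an adjusted p under 0.05, where 0.572% of the 10844 genes tested did. At an unadjusted p under 0.05 the count was also 0, beside 1882 of the 10844 genes tested, and DESeq2 called 0 members. These embryos carried more maternal than paternal reads in all. Maternal reads were 52.7%, 60.5% and 51.8% of all allelic reads, and the median autosomal gene stood at 51.4%, 58.8% and 51.3%. The *Peg3* share was below the median of autosomal genes in all 3 embryos, by most in embryo 2, where it was also below the first quartile, 52.1%. In embryos 1 and 3 it lay between the quartiles, 46.5% to 56.4% and 46.0% to 56.9%. When each embryo's autosomal median was set to 50%, the mean share was 45.9% for *Peg3* (41.2 to 49.6) and 51.9% for *Usp29* (40.4 to 70.2). Reads were aligned to an assembly of C57BL/6J, the main background of the mutant females, and the part of that in the shares was not tested.

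The local background was taken from the genes around the domain. Of 84 genes that start within 1 Mb of *Peg3*, 34 were in the allelic tables and 9 had at least 10 reads in each embryo, zinc finger genes in each case. Their mean maternal shares ran from 40.3% (*Zfp773*) to 56.8% (*Zfp418*), with a median of 51.3%, and 0 of 9 differed between alleles by edgeR. Single embryos varied widely where reads were few, as for *Zfp583*, which had 56.5%, 69.8% and 14.3% with 35 to 62 reads. *Zik1* had 44.3%, 55.2% and 46.4%.

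**Figure D5:**
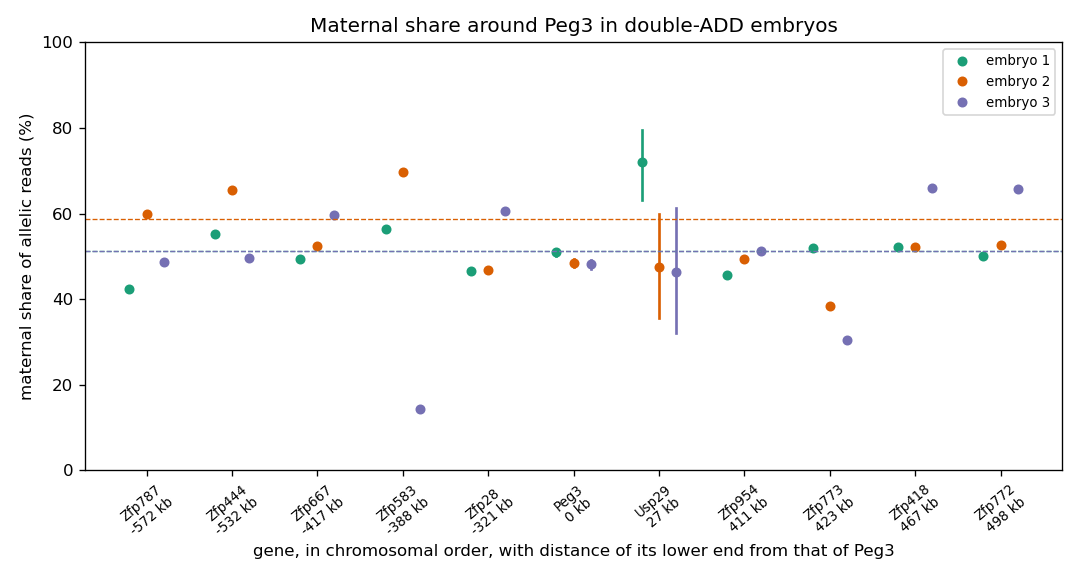
Maternal share of allelic reads (vertical axis, %) in the 3 embryos for Peg3, Usp29 and the 9 genes within 1 Mb with at least 10 reads in each embryo, in chromosomal order along the horizontal axis with distances in kb. Vertical bars are Wilson 95% intervals (members only) and dashed lines the autosomal median of each embryo. Peg3 lies at 48.1% to 50.9%, and Usp29 in embryo 1 stands above, at 72.1%.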

How the data were processed

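Alignment was by STAR to mm10, and the study's methods name both featureCounts and HTSeq for counting. The authors deposited raw counts of reads per gene for each single-oocyte library (SMART-Seq HT kit) and allele-specific counts for the embryos in a maternal and a paternal table. The annotation release, strand setting and allele-assignment tool are not given in the sources used here. Among the allelic values, 8 columns of wild-type embryos matched no sample of the series and were not used. The quasi-likelihood test of edgeR 4.0.16 (R 4.3.3) was run on TMM-scaled counts after filterByExpr (minimum count 10), with p adjusted by Benjamini-Hochberg over all genes tested, FGOs in 1 fit of 42 libraries and MII oocytes in 1 fit of 52. The common biological coefficient of variation was 25.2% and 23.8%. Genes were called at an adjusted p under 0.05 and a fold change over 2, with no minimum fold for the non-additive contrast and the alleles. Alleles were fitted with the embryo as a block and the embryo's total allelic count (7534598, 8547786 and 6998944) as library size. Shares needed 10 allelic reads and carry Wilson 95% intervals, and up to 3 counts remain possible at a count of 0. The scripts were tested on simulated data. The genes named were the 4 members, the flanking genes, the imprint and PEG3 partner lists, the neighbours within 1 Mb and, for each member, the 3 genes most like it. Members and lists were chosen with earlier results of these data known. Whether a library had under or at least 80% of reads mapped came from the study's supplement. Libraries of a group all differed beyond counting noise (lowest chi-square per degree of freedom 3.90). Alternatives were edgeR's exact test, DESeq2 1.42.0, RLE scaling, a looser filter, other sets of libraries, a replicate block, each library left out in turn, and for the alleles no block, a minimum of 100 reads and scaled shares. The 4 comparisons within a class of mapped reads for DNMT3A-ADD FGOs and MII oocytes were added after seeing the data. Replicate numbers did not pair the oocytes (correlation of same-numbered deviations from -0.514 to 0.468). Figures were drawn with matplotlib 3.10.9.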

Additional observations from a re-analysis of the deposited data

Results flagged for a closer look

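Among the 16 groups of 4 to 10 oocyte libraries examined (4 members in 4 groups), 2 held a library far from the others, and chance gives about 1 in 20. *Peg3* was at 82.4 CPM in DNMT3A-ADD FGO replicate 4, with the next library at 56.3 CPM. *Zfp264* was at 2.03 CPM in DNMT3L-ADD FGO replicate 4, with the next at 3.61 CPM.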

How the results depend on the processing

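The count of members called stayed at 0 in the 5 oocyte comparisons and the allele comparison under every setting run, with 3 exceptions. Without a minimum fold change it was 1 in MII oocytes (*Peg3*), with the replicate block 1 in the non-additive contrast (*Usp29*, 0.61, adjusted p = 0.0230 by edgeR), and against controls with under 80% of reads mapped 2 in that contrast. The replicate numbers do not pair the oocytes (0 oocytes correlated best with their own number), and with the block 442, 720, 128 and 1706 of all genes were called in place of 103, 322, 260 and 1452 (DNMT3L-ADD, DNMT3A-ADD, double mutant, MII). Log2 differences that changed sign, none of them called, were, against controls with at least 80% of reads mapped, *Peg3* (0.047) and *Usp29* (0.17) in DNMT3L-ADD, *Usp29* in DNMT3A-ADD (0.14) and MII (0.12), and *Zfp264* in the non-additive contrast (0.0064). Within the class with at least 80%, they were *Peg3* (0.17) and *Usp29* (0.23) in DNMT3A-ADD and *Usp29* in MII (0.078), and within that with under 80%, *Zfp264* in MII (0.16). With 1 library left out, *Peg3* ran from -0.16 to 0.016 and *Usp29* from -0.10 to 0.013 in DNMT3L-ADD, and *Usp29* in embryos from -0.17 to 0.64. Setting autosomal medians to 50% moved the *Peg3* share to 45.9%. Without a minimum fold 964, 2465, 1926 and 6170 genes were called. The looser filter gave 682 in DNMT3A-ADD, 4200 in MII and 97 between alleles. Wild-type FGOs with under 80% gave 615, 791 and 110 in the mutants, those with at least 80% gave 821 in the double mutant and 809 in MII, and single classes gave 47 and 177 in DNMT3A-ADD and 705 and 621 in MII. DESeq2 called 726 genes between alleles against 62, and leaving out 1 embryo 0 (embryo 3) to 363 (embryo 1). Without DNMT3A-ADD replicate 4 its count was 574. Leaving out MII replicate 2 brought *Zim1* in MII to -0.53 (adjusted p = 0.0481 by edgeR), where the other libraries gave up to 0.171. The causes were not tested. In the embryos, allele-assigned reads were too few for a share of *Zim1* and gave wide intervals for *Usp29*.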
